A study of Mus musculus with 8 samples.

Results

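Glutathione S-transferases join the tripeptide glutathione to reactive and foreign compounds. The 9 genes of this group described here were chosen by name: Gstm1, Gstm2 and Gstm5 of the mu class, Gsta3 and Gsta4 of the alpha class, Gsto1, Gstp1 and Gstt1 of the omega, pi and theta classes, and the membrane enzyme gene Mgst1. The set was picked because Gstm5 had already been seen to be much higher in lungs that misexpress MIA, so that its relatives could be set beside it. All probe sets annotated to exactly 1 of the 9 symbols were taken. That gave 15 of 45037 probe sets (9 of 18193 genes) on the array used at embryonic day E18.5 and 14 of 12422 probe sets (9 of 8251 genes) on the older array used at E11.5.

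The data came from 8 Affymetrix arrays, 6 of E18.5 lung and 2 of E11.5 tissue, all from FVB/N mice. The E18.5 samples were 3 of single transgenic control lung and 3 of MIA bitransgenic littermate lung, labelled SP-C/MIA control and overexpressor. SP-C is surfactant protein C, a product of the distal lung epithelium, and MIA is a secreted protein known from melanoma cells and cartilage. The labels give no more of the construct and do not say which transgene the controls carried. Nothing says how many embryos went into each sample, so p-values measure the spread between these arrays alone. The E11.5 samples were 1 lung and 1 trachea.

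The soluble transferases work as dimers in the cytosol, while Mgst1 belongs to a separate family of membrane proteins. The mu, alpha and pi enzymes attach glutathione to electrophiles such as epoxides and products of lipid peroxidation, which then leave the cell through ABC transporters. The lung is exposed to inhaled and blood-borne compounds, and its airway club cells carry much of its capacity to metabolise them. Many transferase genes are known targets of NRF2, the transcription factor of the electrophile response, which binds antioxidant response elements.

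The arrays were comparable in scale. Median signals lay between 415 and 464 at E18.5 and at 541 and 545 at E11.5. Across genes, which are not independent replicates, correlations of log2 signal ran from 0.957 to 0.986 within the E18.5 groups and from 0.946 to 0.980 between them. The 3' to 5' signal ratio of Actb, a sign of RNA quality, was 1.5, 1.47 and 1.28 in the control arrays and 1.65, 1.51 and 1.61 in the bitransgenic arrays. It thus moved with the group, by a narrow margin at the nearest arrays (1.51 against 1.5). The same ratio of Gapdh was 0.9206, 0.9210 and 0.7814 in the control arrays and 0.9963, 0.9209 and 1.0787 in the bitransgenic arrays. Its groups overlapped, with bitransgenic 2 just below control 2. Mia itself averaged 959 ± 194 (SD, n = 3) among controls and 38537 ± 6207 (SD, n = 3) among bitransgenic lungs, and every bitransgenic array lay above every control.

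Gstm5 stood apart from its relatives at E18.5. One probe set measured it, and it read 3447, 4121 and 4834 in the control arrays and 20853, 24370 and 28305 in the bitransgenic arrays. The lowest bitransgenic array lay far above the highest control. The means were 4134 ± 694 (SD, n = 3) and 24509 ± 3728 (SD, n = 3), a ratio of 5.93 on the linear scale. On the log2 scale the change was 2.54 (SE 0.16). Relative spread was alike in both groups, with coefficients of variation of 16.8% and 15.2%. The log2 values here and below are of signal plus a pseudocount of 86.4, which compresses changes of dim probe sets. Over 17 alternative settings the log2 change ran from 2.42 to 2.80, the highest value coming when the Actb ratio was fitted as a covariate. Gstm5 is the gene on which the set was chosen, so these values are a description and no p-value is attached to them, nor to the E18.5 changes of the other 8 genes.

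**Figure D1:**
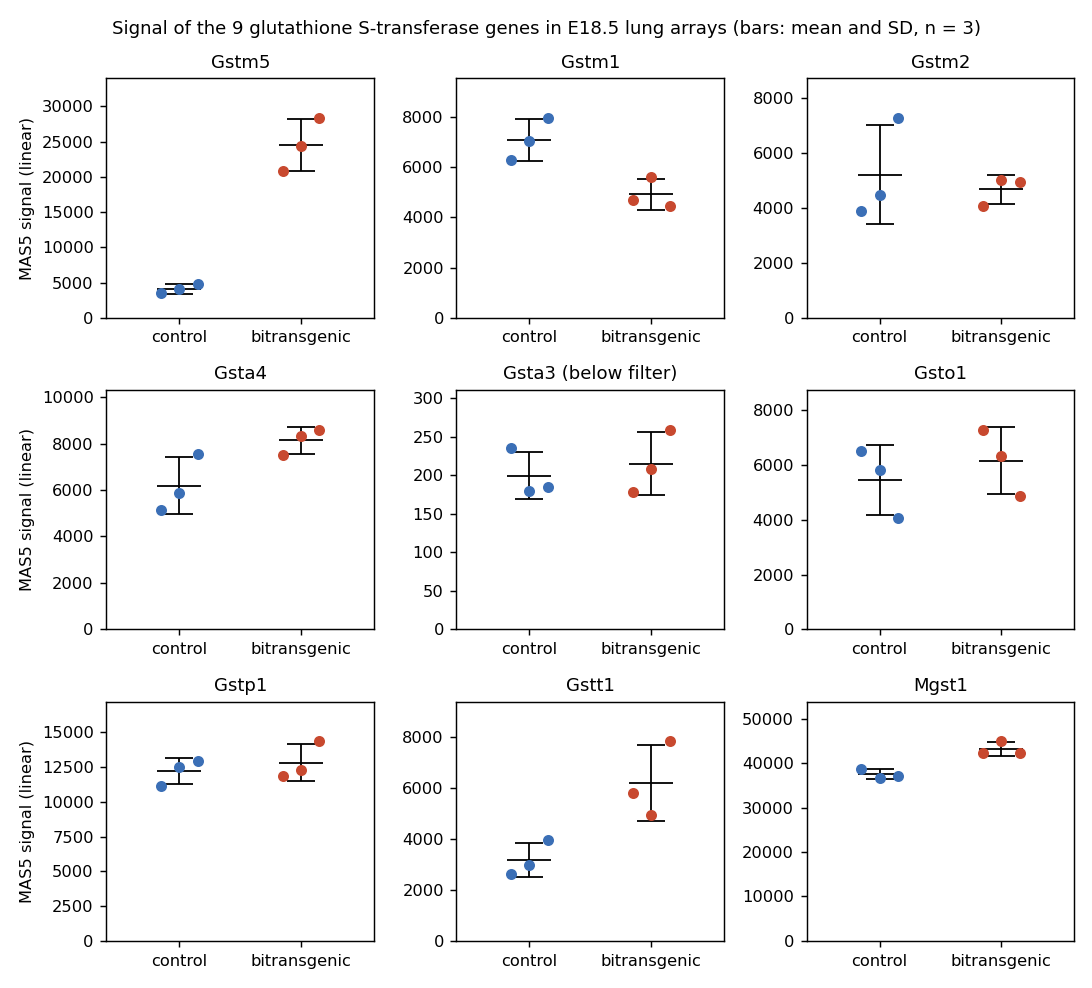
Each panel plots the linear MAS5 signal (y axis, from 0) of 1 glutathione S-transferase gene in 3 control and 3 bitransgenic E18.5 lung arrays. Points are single arrays, and bars are the mean and SD. The bitransgenic points of Gstm5 lie between 20853 and 28305 and the controls between 3447 and 4834, while the points of Gstm2, Gsta4, Gsta3, Gsto1 and Gstp1 overlap between the groups.

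Of the 9 genes, 8 passed the filter on low signal, which kept genes whose mean log2 value reached the 40th percentile of all probe sets, and Gsta3 did not. In limma's fit over all genes 85 of 12625 (0.673%) passed an adjusted p of 0.05 (Benjamini-Hochberg), 30 of them higher (0.238%) and 55 lower (0.436%) in the bitransgenic lungs. One of the 8 was among them, Gstm5. Of the 15 probe sets 12 passed the filter and 1 was called, beside 120 of 27022 (0.444%) over all probe sets. Every bitransgenic array exceeded every control for 3 of the 8 genes (Gstm5, Gstt1 and Mgst1), beside 1118 of all genes (8.86%), and each lay below them for Gstm1, beside 954 of all genes (7.56%). The other 4 genes had overlapping groups. Since the contrast that chose the set also gave these counts, nothing is read from them.

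The remaining mu genes did not follow Gstm5. Gstm1, which encodes a major mu-class subunit of mouse tissues, was measured by 4 probe sets. The brightest read 6298, 7041 and 7956 in the control arrays and 4705, 5620 and 4461 in the bitransgenic arrays, with no overlap. The means were 7098 ± 830 and 4928 ± 611 (SD, n = 3 each), and the log2 change was -0.52 (SE 0.14), opposite in sign to that of Gstm5. A second probe set read 3499, 4256 and 5071 against 2952, 3677 and 3291, a log2 change of -0.35 (SE 0.17) with overlapping groups. The remaining probe sets of Gstm1 both had log2 changes of -0.12 (SE 0.22). All 4 were negative, and the groups were separate in 1 of them. The brightest was at -0.26 under the Actb covariate, and the mean of all Gstm1 probe sets was at -0.28.

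Gstm2 encodes another mu-class subunit. Its signal was 3887, 4489 and 7275 in the control arrays and 4062, 5032 and 4951 in the bitransgenic arrays. Control 3 was higher than every bitransgenic array, and the other controls were not. The means of 5217 ± 1807 and 4682 ± 538 (SD, n = 3 each) differed by less than the spread of the controls, with a log2 change of -0.11 and an SE of 0.22. The sign turned without control 3 (0.15), with array weights (0.041) and under the Actb covariate (0.45).

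**Figure D2:**
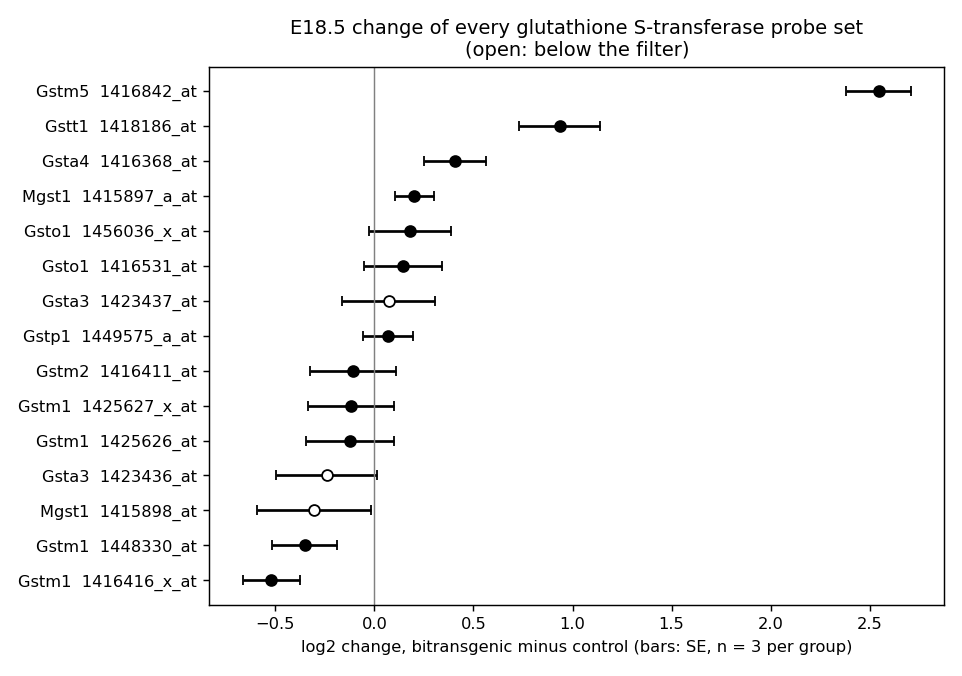
The x axis gives the log2 change (bitransgenic minus control) of each of the 15 probe sets, listed on the y axis with its gene, and the bars are SE with 3 arrays per group. The Gstm5 probe set lies at 2.54, Gstt1 at 0.93, and the lowest value is that of a Gstm1 probe set at -0.52, with open points for the 3 probe sets below the filter.

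The mu genes lie side by side on chromosome 3 (mouse assembly GRCm38.p6). Gstm5 spans 107895854 to 107898685 on the plus strand, Gstm2 spans 107981702 to 107986420 and Gstm1 spans 108012250 to 108017973, both on the minus strand. The 250 bases before the start of each, for Gstm1 its outer start, are shown here, from RefSeq on GRCm38.p6. They were chosen because these neighbouring genes of 1 family had unlike changes. They read 5′ to 3′ along the gene, and capitals mark matches to TGACNNNGC, the core of the antioxidant response element, and to TGACTCA, the AP-1 site.
Gstm5, chr3:107895604-107895853, plus strand: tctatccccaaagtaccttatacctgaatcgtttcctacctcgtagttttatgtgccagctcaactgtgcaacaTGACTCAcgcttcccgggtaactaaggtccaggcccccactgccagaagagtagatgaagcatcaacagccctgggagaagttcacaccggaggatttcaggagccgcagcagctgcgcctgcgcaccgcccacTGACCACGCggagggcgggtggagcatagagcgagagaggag
Gstm2, chr3:107986421-107986670, minus strand: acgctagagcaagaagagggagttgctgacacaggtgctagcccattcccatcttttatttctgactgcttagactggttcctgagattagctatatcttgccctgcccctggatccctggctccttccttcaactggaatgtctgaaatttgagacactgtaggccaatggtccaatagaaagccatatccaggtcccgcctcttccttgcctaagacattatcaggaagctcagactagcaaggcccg
Gstm1, chr3:108017974-108018223, minus strand: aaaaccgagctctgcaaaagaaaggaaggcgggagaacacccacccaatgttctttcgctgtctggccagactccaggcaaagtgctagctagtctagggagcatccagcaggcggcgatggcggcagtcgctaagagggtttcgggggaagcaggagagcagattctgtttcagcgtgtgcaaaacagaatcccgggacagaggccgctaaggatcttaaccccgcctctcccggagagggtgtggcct

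The windows were searched on both strands. Gstm5 held TGACCACGC, a match to the antioxidant response element core, with its first base at -42 from the start, and TGACTCA at -176. The windows of Gstm2 and Gstm1 printed here held neither, nor did the window at an inner start of Gstm1, which is not printed. TGACNNNGC occurred in 3338 of 32851 promoter windows of this length (10.2%) and TGACTCA in 1466 (4.46%). A window was available for 8 of the 9 genes, with 10 windows in all. Besides Gstm5, the antioxidant core was matched in Gsta3 and Mgst1 and the AP-1 letters in Gstp1. The core of the xenobiotic response element, GCGTG, which the aryl hydrocarbon receptor binds, was matched in Gstm5, Gstm1 and Gstp1 (28.2% of all windows). Its matches in Gstm5, at -171 and -38, overlap the AP-1 and antioxidant matches. The GC box GGGCGG was matched in Gstm5, Gsto1, Gstp1 and Mgst1 (32.7% of all windows), and TATAAA in a window of Gstm1 at an inner start (12.4%). These are matches of letters and say nothing of binding.

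Within 500 kb of Gstm5 lie 28 other protein-coding genes, of which 26 were on the array and 15 passed the filter. None of the 15 passed limma's adjusted threshold, which 0.673% of all genes passed. Gstm1 and Gstm2 are among the 15 and belong to the chosen set, so no p-value is given for them. None of the others had an unadjusted p under 0.05, which 9.69% of all genes had. With array weights, under which 1339 of all genes were called, Gstm1 was called too. The log2 changes of the 15 ran from -0.52 to 0.23, with 9 positive and 6 negative. The mu relatives among them were Gstm7 at 0.19 (27.6 kb away), Gstm3 at -0.06 (65.0 kb), Gstm2 at -0.11 (83.0 kb), Gstm1 at -0.52 (114 kb) and Gstm4 at -0.17 (132 kb). The 10 tested genes outside the family ran from -0.23 (Slc6a17) to 0.23 (Celsr2), with Csf1, which encodes a macrophage growth factor, at 0.02 and Ahcyl1 at 0.18. The nearest gene, Eps8l3 at -2.95 kb, and Gstm6 did not pass the filter.

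**Figure D3:**
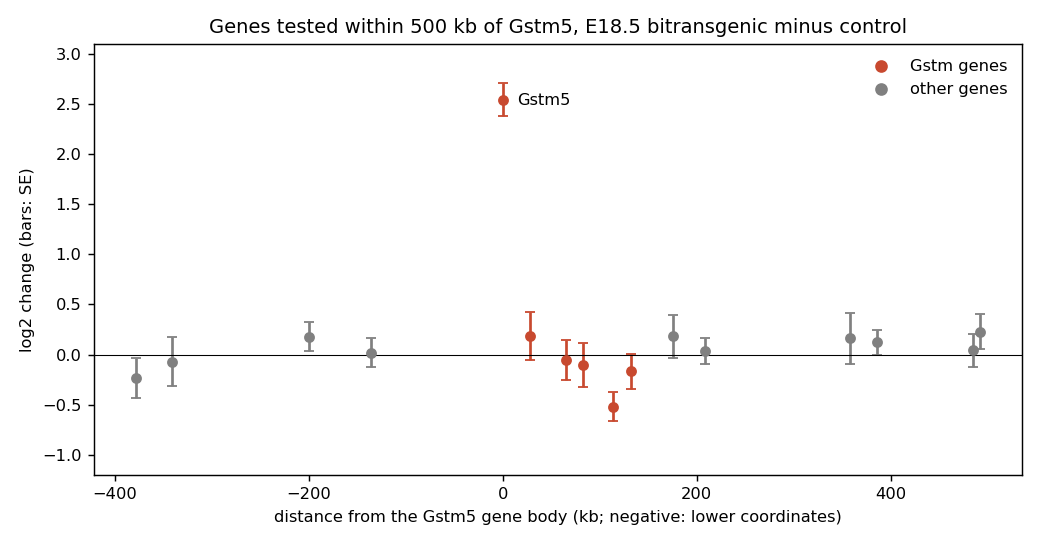
The x axis gives the distance of each tested gene from the Gstm5 gene body in kb, within 500 kb on either side, and the y axis its E18.5 log2 change (bitransgenic minus control), with SE bars and mu-class genes in red. Gstm5 lies at 2.54 and the 15 neighbours between -0.52 and 0.23.

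The transferases outside the mu class had smaller differences than Gstm5, and the groups of Gsta4, Gsta3, Gsto1 and Gstp1 overlapped. Gstt1, a theta-class enzyme that acts on small halogenated compounds (chromosome 10, 75783813 to 75798584), had the next largest value. Its signal was 2627, 2975 and 3942 in the control arrays and 5794, 4933 and 7829 in the bitransgenic arrays. The lowest bitransgenic array lay above the highest control. The means were 3181 ± 681 and 6185 ± 1487 (SD, n = 3 each), a ratio of 1.94, and the log2 change was 0.93 (SE 0.20). Gstt1 was not among the 85 genes called. It was called when control 3, its highest control, was left out (log2 change 1.10) and with array weights, under which 5 of the 8 transferases and 1339 of all genes were called.

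Mgst1, the microsomal transferase, which also has peroxidase activity (chromosome 6, 138140527 to 138156755), had the tightest groups. Its bright probe set read 38742, 36709 and 37186 in the control arrays and 42334, 44893 and 42329 in the bitransgenic arrays. All bitransgenic arrays were higher, by a small amount. The means were 37546 ± 1063 and 43185 ± 1479 (SD, n = 3 each), with coefficients of variation of 2.83% and 3.42%, and the log2 change was 0.20 (SE 0.09). The other Mgst1 probe set was below the filter, at 58.8 to 188 in the controls and 40.8 to 81.3 in the bitransgenic lungs, and the mean of both probe sets was at -0.051.

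The alpha-class genes differed in how well they were measured. Gsta4, whose enzyme conjugates the lipid peroxidation product 4-hydroxynonenal (chromosome 9, 78191966 to 78209349), read 5149, 5887 and 7543 in the control arrays and 7500, 8346 and 8591 in the bitransgenic arrays. Control 3 lay just above bitransgenic 1, and no other pair of arrays crossed. The means were 6193 ± 1226 and 8146 ± 572 (SD, n = 3 each) and the log2 change was 0.41 (SE 0.16). It was 0.72 in the fit with the Actb covariate. Gsta3 (chromosome 1, 21240565 to 21265575), known in mouse for detoxifying aflatoxin epoxide, was below the filter in both probe sets. One read 145, 163 and 137 in the controls against 182, 86.5 and 82.1, and the other read 235, 179 and 185 against 178, 208 and 259. Both had overlapping groups, at signals of 82.1 to 259.

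Gstp1 and Gsto1 had overlapping groups in every probe set. Gstp1, the pi-class enzyme of many epithelia (chromosome 19, 4035411 to 4037912), read 11165, 12505 and 12946 in the control arrays and 11847, 12287 and 14354 in the bitransgenic arrays. The groups overlapped, and the log2 change of 0.07 had an SE of 0.13, turning to -0.014 without bitransgenic 3. Gsto1, the omega-class enzyme, which reduces dehydroascorbate (chromosome 19, 47854973 to 47864790), was measured by a pair of probe sets. The brighter read 6501, 5797 and 4043 against 7275, 6331 and 4847, a log2 change of 0.18 (SE 0.21). The other read 2541, 2476 and 3788 against 2630, 3474 and 3552, a log2 change of 0.14 (SE 0.20). Control 3 was the lowest control in the first and the highest in the second, so the probe sets of Gsto1 ordered the same arrays differently. The brighter turned to -0.017 without control 3 and to -0.19 under the Actb covariate.

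Control 3 held the highest control signal in 6 of the 8 genes that passed the filter and in 8 of 12 probe sets. The median signal over all probe sets was also higher in control 3 (460) than in controls 1 and 2 (415 and 416). The share over all genes was not counted, so nothing is read from these counts. As a description, the difference between the log2 change of Gstm5 and that of each other gene ran from 1.61 for Gstt1 to 3.06 for Gstm1. The median log2 change of the 8 genes was 0.19, beside 0.01 over all genes, with 6 positive and 2 negative. Gstm5, on which the set was chosen, is among them, so nothing is read from this median or these signs. The signs of Gsto1, Gstp1 and Mgst1 (positive) and of Gstm2 (negative) turned in some settings. Mu-class transcripts are alike in sequence, and probe sets with the suffix _x_at or _f_at can share probes with related genes, as the brightest probe sets of Gstm1 and Gsto1 at E18.5 and of Gstm5 and Gstm1 at E11.5 have. Cross-hybridisation between relatives was not tested.

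Genes with the profile most like that of Gstm5 over the 6 arrays were sought by Euclidean distance between log2 values centred on each gene's mean. Members and genes with clone names were left out of this search. The 5 nearest of the remaining tested genes were Rtl3 at 1.05, Rspo2 at 1.35, Cdh16 at 1.36, Atp13a4 at 1.52 and Fam184a at 1.70. The Gstm5 profile itself had a length of 3.15. Their log2 changes were all smaller than that of Gstm5, from 1.28 for Fam184a to 1.73 for Rtl3. Rtl3, a gene derived from a retrotransposon, read 353, 427 and 418 in the control arrays and 1481, 1544 and 1554 in the bitransgenic arrays. Rspo2 encodes an activator of Wnt signalling, and it read 1175, 894 and 1016 against 3693, 2498 and 4134. Cdh16, a cadherin known from kidney, read 6342, 6150 and 5263 against 19144, 18769 and 16407. They were picked for this likeness, so their separation between groups carries no test.

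Other genes of glutathione and drug metabolism were followed in 7 lists. Together they held 99 tested genes, of which 2 were called by limma, beside 0.673% of all genes, and 16 had an unadjusted p under 0.05, beside 1223 of 12625 (9.69%) of all genes. At 0.673% a count of 0 says little of a list this short. With array weights 10.6% of all genes were called, and so were 6 genes of the glutathione list, 4 of the NRF2 target list and 4 of the phase I list (Gclc, Gclm and Pgd are on both the glutathione and the NRF2 list). The list of other transferases, with the membrane-bound relatives and the CLIC proteins that share the transferase fold, had 17 of 26 genes tested, 0 higher and 1 lower, with a median log2 change of -0.09. The gene called was Clic5, which encodes a chloride intracellular channel protein of that fold and was also on the list of alveolar type I markers. It fell from 16582, 15786 and 19420 in the controls to 6889, 9024 and 4102, a change of -1.43 on the log2 scale (limma adjusted p = 0.0388). That call was lost in 9 of 17 alternatives, with median centring, no filter or no intensity trend (adjusted p from 0.0656 to 0.0841), under the Actb covariate (adjusted p = 0.588) and without control 1, control 2, control 3, bitransgenic 1 or bitransgenic 3 (adjusted p from 0.0513 to 0.130), while the change stayed between -1.07 and -1.49 in these settings.

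Without its 3 CLIC genes the list held 14 tested genes, 0 of them called by limma and 1 with an unadjusted p under 0.05. They divided into 6 positive and 8 negative, from -0.41 (Ptges, the prostaglandin E synthase of the Mgst family) to 0.47 (Gstt3). Gstt3, a theta-class relative of Gstt1, read 1012, 1452 and 1595 in the control arrays and 1736, 1881 and 1996 in the bitransgenic arrays, with separate groups (limma adjusted p = 0.429). Gstt2, the remaining theta gene tested, stood at 0.16 on the log2 scale (limma adjusted p = 0.847). The mitochondrial Gstk1 stood at 0.09, Gstz1 of tyrosine breakdown at -0.17, and the membrane enzymes Mgst2 and Mgst3 at -0.33 and -0.31.

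Of 37 listed genes that make, recycle and use glutathione 26 were tested, 0 were called by limma and 6 had an unadjusted p under 0.05, with 12 positive and 14 negative and a median of -0.07. The rate-limiting ligase subunits Gclc and Gclm had log2 changes of 0.06 and -0.14, the synthetase Gss 0.26 and the reductase Gsr 0.30. Ggt5, which cleaves glutathione conjugates such as leukotriene C4, read 1905, 1982 and 1783 in the control arrays and 2546, 3934 and 3781 in the bitransgenic arrays. Its groups were separate, and its log2 change was 0.80 with an SE of 0.18 (limma adjusted p = 0.0992). Among the glutathione peroxidases, Gpx3, the secreted form, stood at -0.61 on the log2 scale (limma adjusted p = 0.32) and Gpx1, the cytosolic form, at -0.46 (0.265). Under the Actb covariate Gpx3 and Gpx1 stood at -0.24 and -0.20. Of the other peroxidases tested, Gpx4 stood at -0.40, Gpx7 at -0.10 and Gpx8 at 0.38. With the covariate Gpx4, Gpx7 and Gpx8 stood at 0.00, 0.39 and 0.84.

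Of 28 listed targets of NRF2 other than transferases 24 were tested, 0 were called by limma, 4 had an unadjusted p under 0.05, and 10 were positive and 14 negative, with a median of -0.08. Nqo1, the quinone reductase often read as a marker of NRF2 activity, stood at 0.16 on the log2 scale (limma adjusted p = 0.86), the heme oxygenase gene Hmox1 -0.34 (0.682), the thioredoxin reductase gene Txnrd1 0.03 and the sulfiredoxin gene Srxn1 -0.02. The smallest p-values were those of Txn1 at -0.33, Me1 at -0.53, Aox1 at -0.58 and Pgd at 0.47, with adjusted p from 0.287 to 0.416. Of 9 tested regulators 0 were called by limma and 0 had an unadjusted p under 0.05. Nfe2l2, which encodes NRF2, stood at 0.05 and Keap1, its inhibitor, at -0.15. With glutathione and NRF2 genes joined, 56 different genes were tested, 0 were called, 9 had an unadjusted p under 0.05, and values ran from -0.61 to 0.80.

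**Figure D4:**
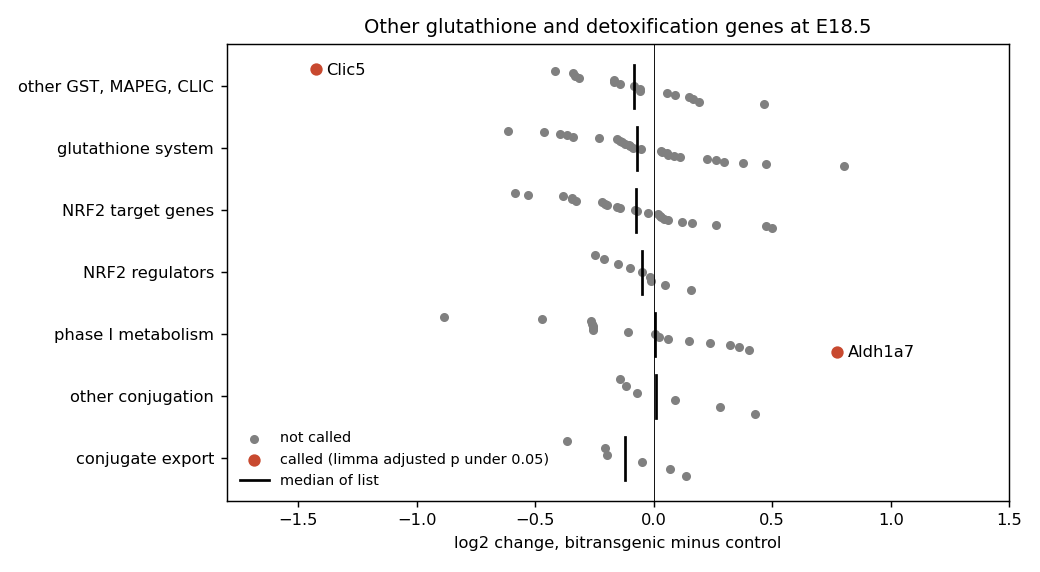
Each point is 1 tested gene of the list named on the y axis, placed at its E18.5 log2 change (x axis, bitransgenic minus control), with the list's median as a black bar and genes past limma's adjusted p of 0.05 in red. Clic5 at -1.43 and Aldh1a7 at 0.77 are the 2 called genes, and the medians lie between -0.12 and 0.01.

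Among the oxidising enzymes of phase I metabolism 17 of 26 genes were tested, with 1 higher, 0 lower and a median of 0.00. Aldh1a7, an aldehyde dehydrogenase, rose from 16821, 15815 and 16418 in the controls to 27515, 27543 and 28946 in the bitransgenic lungs, a log2 change of 0.77 with an SE of 0.10 (limma adjusted p = 0.00904). Every array of one group was clear of the other. The call was lost under the Actb covariate (adjusted p = 0.119) and without control 2, bitransgenic 1, bitransgenic 2 or bitransgenic 3 (adjusted p from 0.0513 to 0.0886), while the change stayed between 0.75 and 0.79. The receptor gene Ahr stood at -0.47 (limma adjusted p = 0.176), Cyp2e1 at -0.89 (0.374) and Adh1 at -0.26 (0.396).

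The other conjugating enzymes had 6 of 13 genes tested, 0 called by limma and 0 with an unadjusted p under 0.05, with a median of 0.01. The sulfotransferase gene Sult1a1 stood at 0.28 and Tpmt at 0.43. The transporters that export conjugates had 6 of 9 tested, 0 called by limma, 1 with an unadjusted p under 0.05 and a median of -0.12. Abcg2 had a log2 change of -0.37, and Abcc1 and Abcc4 both stood at -0.20.

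Markers of the cell types in the lung moved with the groups to different degrees, and their part in the transferase values was not tested. In whole lung RNA fewer cells of a type and less RNA per cell cannot be told apart. The 8 club cell markers, from the cells richest in xenobiotic enzymes, had a summed signal of 160848 to 216858 in the controls and 142494 to 168700 in the bitransgenic lungs, with 0 called. The pan-epithelial sum was 70781 to 79565 against 72564 to 81143. Alveolar type II markers were lower, 272343 to 304082 against 127768 to 168060 with 4 of 7 called lower. However, Sftpc, which encodes the SP-C named in the transgene label, had a log2 change of 0.00. Type I markers were also lower, 275908 to 297657 against 207484 to 234051, with 3 of 8 called lower. Over all genes 55 of 12625 (0.436%) were called lower. Among the type I calls was that of Clic5, which was lost in 9 of 17 alternatives.

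Among other cells, the endothelial sum was 68786 to 95001 in the controls and 50732 to 58327 in the bitransgenic lungs, with 0 called. Macrophage, neutrophil and mesothelial sums were lower, each with 1 gene called lower (0.436% of all genes were) that carried much of the difference. The macrophage sum was 65930 to 75464 against 42447 to 49241, and without the lysozyme gene Lyz2 (log2 change -1.28) it was 24849 to 32753 against 27713 to 31252, which overlap. The neutrophil sum was 5505 to 8852 against 2703 to 3052, and without Lcn2 (-2.70) it was 3493 to 3857 against 2295 to 2498. The mesothelial sum was 36083 to 54098 against 24001 to 29203, and without Msln (-1.61) it was 22544 to 31711 against 18993 to 22247. Most of that remainder was Krt19, which is also on the pan-epithelial list (15178 to 22090 against 12248 to 13980). Upk3b, Wt1, Lrrn4, Rspo1, Upk1b and Bnc1 each had overlapping groups. The erythroid sum was 13553 to 16507 against 7725 to 9497, with 0 called. Most of it was Alas2, at 9549 to 14287 against 5216 to 7431. Slc4a1, Epb42 and Klf1 had overlapping groups. The dim Hba-a1, which did not pass the filter, was higher, at 23.1 to 45.0 against 65.3 to 114. The mesenchymal, smooth muscle, ciliated, cardiac, cartilage and neuroendocrine sums overlapped between groups, with 1 cardiac gene, Myh7, called higher, beside 0.238% of all genes. Hepatocyte markers, checked because liver is rich in transferases, summed to 659 to 2289 against 458 to 916, and 2 of 7 were below the pseudocount on every array.

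At E11.5 no transferase gene was counted as apart between lung and trachea. With 1 array per tissue there was no test, and a gene was counted as apart when it differed by over 2-fold with the higher signal above the table's median of 543. Over all genes 182 of 5121 (3.55%) were apart. Of the 9 genes 7 could be compared, 0 were apart, and the log2 ratios of lung to trachea ran from -0.74 to 0.09. Gsta3 (130 in lung, 110 in trachea) and Mgst1 (428 and 267) were below the median in both tissues, the latter at a log2 ratio of 0.54.

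By its brightest probe set, which can share probes with related genes, Gstm5 was nearly equal in the E11.5 tissues. The mean of all its probe sets was at a log2 ratio of -0.27. The brightest probe set read 13987 in lung and 13859 in trachea, a log2 ratio of 0.01, and a second read 2841 and 3145, a ratio of -0.14. The other Gstm5 probe sets were below the median, one of them at 60.8 in lung and 232 in trachea. Gstp1 and Gsto1 were also close, at 11920 and 11174 and at 2419 and 2441. The values of the arrays at E11.5 and E18.5 come from different probes and are not set against each other.

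Gstm1, Gsta4, Gstm2 and Gstt1 had higher signals in trachea by less than 2-fold. Gstt1 read 412 in lung and 747 in trachea and Gsta4 read 1123 and 1665, log2 ratios of -0.74 and -0.53. Gstm2 split by probe set, with 1179 and 2019 in one (log2 ratio -0.74) and 1470 and 909 in the other (0.65). Gstm1 did the same, with 4406 and 5628 (-0.35) against 1341 and 1066 (0.31). Of the 7 lists of other genes, the phase I list, with 11 genes compared, held the only genes apart. They were Adh1 (1564 in lung, 271 in trachea) and Aldh1a7 (642 and 163), the aldehyde dehydrogenase that was also higher in the E18.5 bitransgenic lungs. The other lists had 15 (glutathione), 15 (NRF2 targets), 6 (other transferases), 6 (NRF2 regulators), 2 (export) and 1 (other conjugation) compared. With 3.55% of all genes apart, a count of 0 says little of lists this short.

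**Figure D5:**
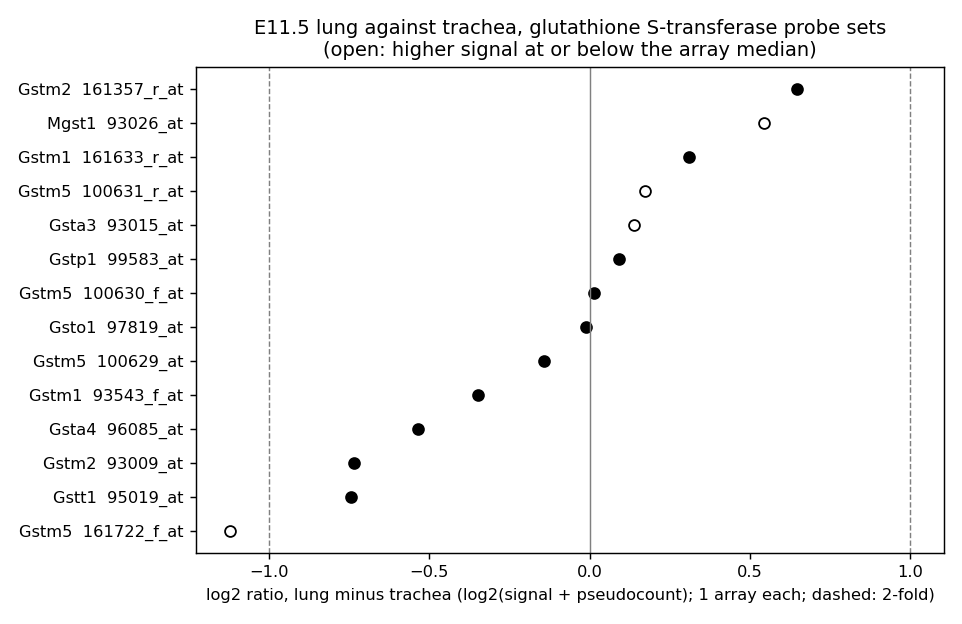
The x axis gives the log2 ratio of lung to trachea for each of the 14 probe sets at E11.5, listed on the y axis with its gene, from 1 array per tissue, with dashed lines at 2-fold and open points where neither signal exceeded the median of 543. The one point beyond 2-fold is a dim Gstm5 probe set (60.8 and 232), and the brightest Gstm5 probe set lies at 0.01.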

How the data were processed

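RNA of 6 E18.5 mouse lung samples and of 1 E11.5 lung sample and 1 E11.5 trachea sample had been hybridised to Affymetrix arrays. The deposited values are intensity, a linear signal per probe set, made with MAS5 per the submitters' processing notes, with no version stated. The values show equal trimmed means on all arrays and no logarithm. Groups came from the labels. Control probe sets (64 and 66) were left out. Of 45037 and 12422 remaining probe sets, 34945 and 10833 had 1 gene symbol in the array annotation, and those with several were not used. Symbols, positions and promoters came from RefSeq tables (GRCm38.p6).

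A pseudocount was added to each signal before log2 was taken, at the 20th percentile of each table (86.4 and 84.3), so changes near it are compressed. Each gene took its brightest probe set by mean log2, and it was tested at E18.5 if that mean reached the 40th percentile of all probe sets. The E18.5 test used limma 3.58.1 under R 4.3.3 (lmFit, eBayes with an intensity trend, two-sided, Benjamini-Hochberg over 12625 genes or 27022 probe sets, threshold 0.05). An exact permutation of 3 against 3 arrays gives no p under 0.1. The fit was tested on simulated data.

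The members and the gene lists were chosen with earlier results of these data known. Named were the 9 genes, Mia, every called gene of a list or up to 4 with the smallest p, the 5 genes nearest to Gstm5 in profile, and tested genes within 500 kb of it. The search for the nearest profiles left out the 9 members and genes with clone names. Other list genes and marker genes given with values (among them Gclc, Nqo1, Nfe2l2, Gstt2 and Sftpc) were named for their known roles after their values were seen, and marker sums without 1 gene were added then. Alternatives covered scaling, pseudocount, filter, variance model, array weights, probe set choice, an Actb 3' to 5' covariate, and each replicate left out. The number of arrays limits the precision.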

Additional observations from a re-analysis of the deposited data

How the results depend on the processing

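Of 136 alternative values for the 8 genes tested at E18.5, 123 kept direction and side of the threshold, 5 passed it in addition and 8 changed sign. Gstm2 was 0.041 with array weights and 0.45 given the Actb covariate, and -0.29 to 0.15 with 1 array left out (0.15 without control 3). Gsto1 was -0.19 with the covariate and -0.017 (without control 3) to 0.34 with 1 array left out. Gstp1 was -0.0087 with array weights and -0.014 (without bitransgenic 3) to 0.12 with 1 array left out, and Mgst1 was -0.051 as the mean of its probe sets. The number of genes called (85) was 1339 with array weights, whose fit stopped before its convergence tolerance, 20 with the covariate, and 22 to 97 with 1 array left out (22 when control 2 was left out, then 35, 40 and 56 for bitransgenic 3, 1 and 2). The other 9 settings gave 58 to 103. Probe sets called (120) numbered 63 with no filter, 54 with no intensity trend, 3034 with array weights, 20 with the covariate and 31 to 103 with 1 array left out. E11.5 genes apart (182) numbered 98 when the pseudocount was 4 times as large and 78 when the filter sat at the 60th percentile. At E11.5 the mean of all probe sets of a gene moved Gstm2 from -0.74 to -0.045, Gstm1 from -0.35 to -0.019 and Gstm5 from 0.01 to -0.27, and a pseudocount 4 times as large moved Mgst1 from 0.54 to 0.34. The causes were not tested. With 3 arrays a group, the depth of the comparison is limited by the spread of these arrays, and dim probe sets near the pseudocount (Gsta3 and 1 of Mgst1) are compressed.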
